A study of Mus musculus with 4 samples.

Results

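The solute carrier genes described here were the protein-coding genes on chromosomes 1 to 19 whose symbol begins with Slc and a number and whose body overlapped, by at least 1 bp, a called H3K36me3 peak in Setd2-KO or control renal tubular cells. There were 62 such genes, of 354 that could have been taken. Slc34a1, Slc27a2, Slc6a19 and Slc5a2 were left out by the rule, as were 13 carrier genes on X or Y. Since the 62 genes were chosen by the positions of these called peaks, their peaks are given as a description and no test was run on them. The chromatin came from primary tubular epithelial cells (PTECs) isolated from the kidney cortex of C57BL/6 mice. Setd2-KO PTECs were SETD2fl/fl KspCre/+ and control PTECs were SETD2fl/fl with no Cre, so both carried the floxed alleles on both chromosomes. A genotype was represented by 1 ChIP library, called against 1 input, so every difference between genotypes is a difference between 1 library and 1 other, with no replicate check. The Ksp promoter drives Cre in renal tubular epithelium, most strongly in the distal segments and collecting duct, so a culture of cortical tubules can keep cells in which Cre was not active.

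Solute carriers are membrane proteins that move amino acids, sugars, ions, metals, nucleotides and vitamins across membranes, and the proximal tubule relies on them to reclaim what the glomerulus filters. The Slc25 subfamily forms most of the carrier set of the mitochondrial inner membrane, while many other subfamilies act at the plasma membrane or at the Golgi, the endoplasmic reticulum and lysosomes. H3K36me3 is laid down by SETD2 as it travels with elongating RNA polymerase II, so the mark lies over the bodies of transcribed genes and usually increases towards their ends.

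The deposited lists held 2732 Setd2-KO peaks over 1.44 Mb and 12242 control peaks over 6.43 Mb, and the background pileup recovered from them was 6.54 fragments in the Setd2-KO list and 6.58 in the control list. Setd2 itself had no Setd2-KO peak and 5 control peaks over 3077 bp, which does not by itself show the deletion. Of 13 proximal tubule markers 4 had a Setd2-KO peak and 11 a control peak. None of 12 markers of the later segments (loop of Henle to collecting duct), of 7 fibroblast markers or of 7 immune markers had a peak in either list, and of 7 endothelial markers Kdr and Eng had a control peak only. The tubular cell type of the labels was thus matched by its proximal markers only, and which segments the Cre reached was not tested.

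A Setd2-KO peak lay in 13 of the 354 carrier genes, which is 3.67% (95% Wilson interval 2.16 to 6.18%), and a control peak in 61, which is 17.2% (13.7 to 21.5%). Over all 20780 protein-coding genes on the same chromosomes the shares were 7.76% for the Setd2-KO list and 20.6% for the control list, and 21.2% had a peak in either list. These intervals and all others cover counting error only. Of the 61 control-marked carrier genes 12 also had a Setd2-KO peak, 19.7% (11.6 to 31.3%), against 34.5% of all 4271 control-marked genes. With the 4 left-out genes restored, which all coding genes include, it was 14 of 64, 21.9%. The other 49 of the 61 had a control peak only, and Slc15a2 had a Setd2-KO peak only.

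The members held 9170 bp under 19 Setd2-KO peaks and 63480 bp under 129 control peaks, so the Setd2-KO bases came to 14.4% of the control bases, and the corresponding figure over all coding genes was 21.6%. Slc6a6 and Slc38a2 alone held 39.9% of the Setd2-KO bases and 20.5% of the control bases, and without these 2 genes the members' Setd2-KO bases came to 10.9% of the control bases. The figure over all coding genes includes the 4 genes left out by the rule, and with those restored the carriers' figure was 18.2%. Since peaks were called in each library on its own, the covered length depends on how much was called. Of the 19 Setd2-KO peaks 13 overlapped a control peak, 68.4% (46.0 to 84.6%), against 61.1% of all Setd2-KO peaks. Of the 129 control peaks 13 overlapped a Setd2-KO peak, 10.1% (5.98 to 16.5%), against 12.9% of all control peaks.

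**Figure D1:**
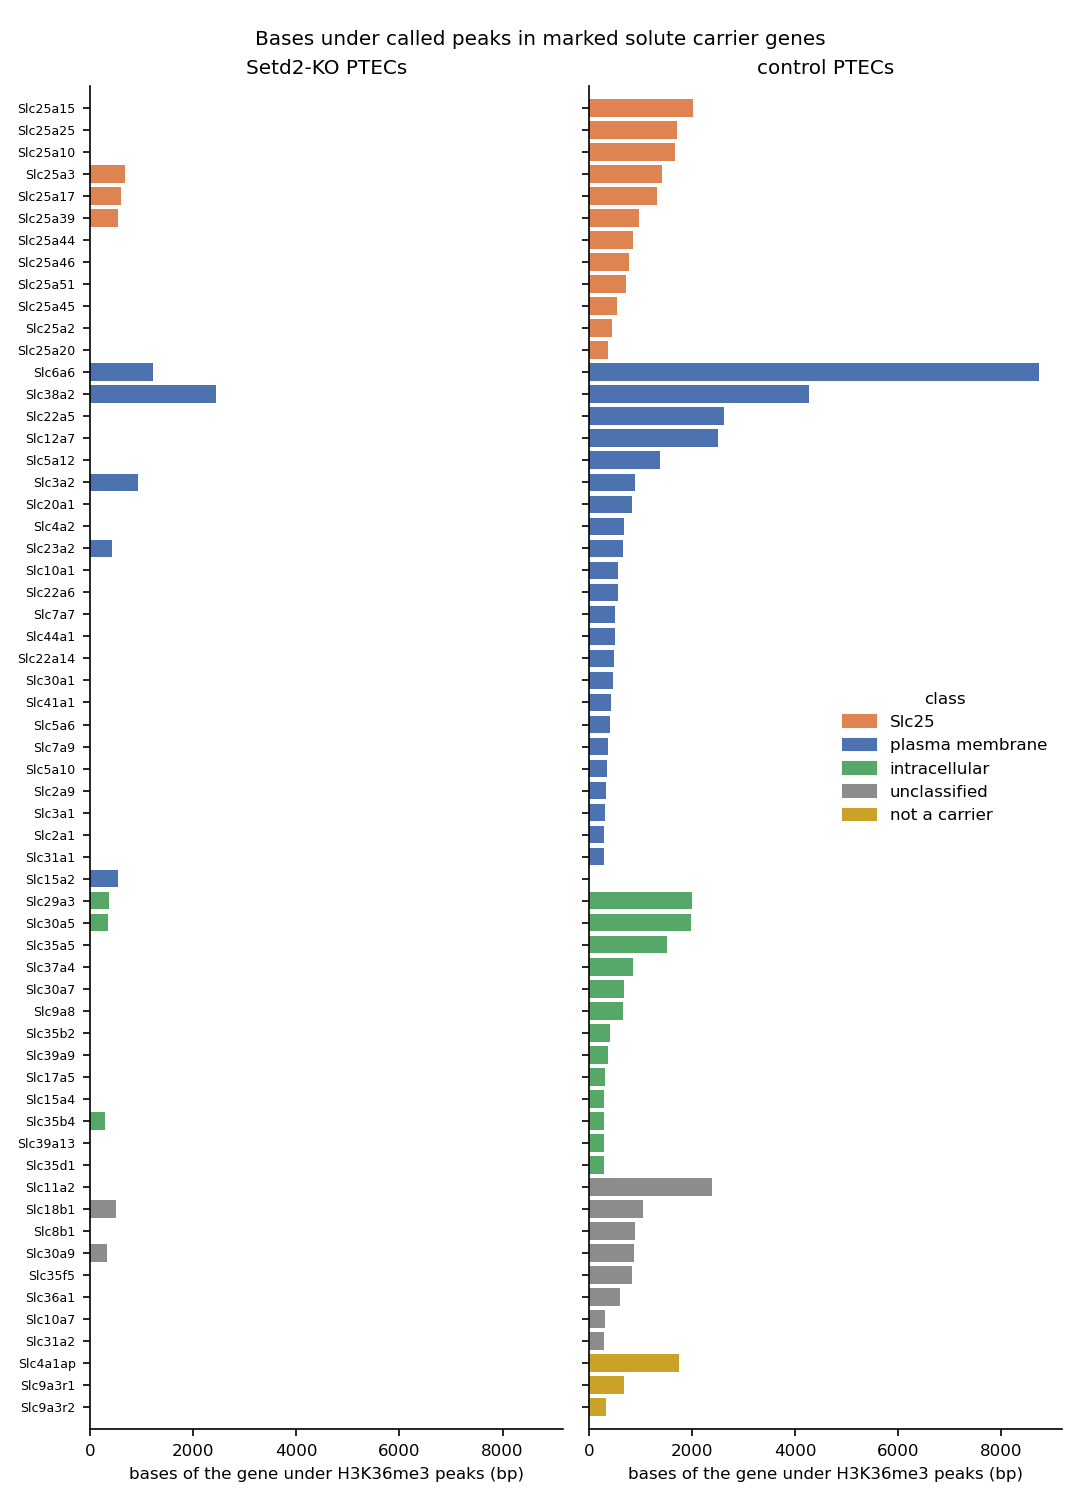
Bases of 60 of the 62 genes under called peaks (horizontal axis, bp), with the Setd2-KO list in the left panel and the control list in the right panel, genes in rows and bar colour for carrier class. Slc38a2 had the most Setd2-KO bases (2441 bp) and Slc6a6 the most control bases (8743 bp), and 47 of the genes drawn had no Setd2-KO bar.

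The sequence under the strongest control peak of the gene with the most control bases in each class is shown first, to let the underlying DNA be read beside the values. Each window has 120 bases centred on the peak summit, is written 5′ to 3′ on the strand of its gene and comes from the RefSeq sequence of GRCm38.p6. Capitals mark bases that RefSeq masks as repeats. The Slc25a15 window was chr8:22381675-22381794, the Slc6a6 window chr6:91725580-91725699, the Slc30a5 window chr13:100827796-100827915 and the Slc11a2 window chr15:100399176-100399295. Slc25a15, Slc30a5 and Slc11a2 lie on the minus strand and Slc6a6 on the plus strand. Where the leading gene of a class had no window free of UTR, the next gene was taken, which is why Slc30a5 stands for the intracellular carriers in place of Slc29a3.
Slc25a15: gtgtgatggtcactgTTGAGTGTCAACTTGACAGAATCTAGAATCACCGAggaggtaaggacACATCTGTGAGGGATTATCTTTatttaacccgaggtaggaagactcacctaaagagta
Slc6a6: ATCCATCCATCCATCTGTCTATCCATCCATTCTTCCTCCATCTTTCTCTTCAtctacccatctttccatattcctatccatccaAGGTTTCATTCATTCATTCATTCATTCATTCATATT
Slc30a5: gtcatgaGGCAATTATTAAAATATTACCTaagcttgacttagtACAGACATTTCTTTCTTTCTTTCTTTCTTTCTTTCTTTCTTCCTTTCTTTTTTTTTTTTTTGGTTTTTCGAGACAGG
Slc11a2: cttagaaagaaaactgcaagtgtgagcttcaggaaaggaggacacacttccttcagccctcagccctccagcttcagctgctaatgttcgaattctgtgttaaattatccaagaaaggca
None of the 4 windows held a coding base. Masked repeats made up 57 of 120 bases in Slc25a15, 88 in Slc6a6, 99 in Slc30a5 and 0 in Slc11a2, and runs of a repeated 4-base unit stand out in Slc6a6 and Slc30a5. The Slc6a6 peak, with 45 fragments at its summit, was centred in an intron 55% of the way along the gene. Over all peaks in members the median masked share was 8.80% of a Setd2-KO peak and 11.8% of a control peak, against 14.8% over all Setd2-KO peaks and 14.9% over all control peaks. Of the members' control peaks 18 (14.0%) were masked over at least 50% of their length, against 14.1% of all control peaks.

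Over all gene lengths, the mitochondrial carriers had the highest control share of the carrier classes, with an interval that overlapped that of other intracellular carriers. Among genes of 20 kb or more they did not have the highest share, as given below. A Setd2-KO peak lay in 3 of 43 Slc25 genes, 6.98% (2.40 to 18.6%), and in 5 of 198 plasma membrane carriers, 2.53% (1.08 to 5.77%). A control peak lay in 13 Slc25 genes, 30.2% (18.6 to 45.1%), and in 24 plasma membrane carriers, 12.1% (8.28 to 17.4%). These control shares stand on either side of the 20.6% of all coding genes, which lies inside the Slc25 interval. Within each length group given below, both classes lay on the same side of all coding genes. Intracellular carriers other than Slc25 had 3 Setd2-KO-marked and 13 control-marked genes of 56, so that 23.2% (14.1 to 35.8%) were control-marked, and carriers with no single assigned location had 2 and 8 of 53. The class of each gene was assigned by hand from its known main location. Without Slc25a17 and Slc25a46, whose products lie outside the inner membrane, the control share of Slc25 was 26.8%.

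Gene length differed between the classes, with a median of 20770 bp for Slc25 and 34723.5 bp for plasma membrane carriers. Among all coding genes a control peak was found in 12.4% of those under 20 kb and 29.9% of those of 20 kb or more. Within the shorter genes the control share was 8 of 20 for Slc25 (40.0%) and 9 of 50 for plasma membrane carriers (18%). Within the longer genes it was 5 of 23 for Slc25 (21.7%) and 15 of 148 for plasma membrane carriers (10.1%). Slc25 lay above plasma membrane carriers in both length groups. Both classes lay above all coding genes of the same length among the shorter genes, and under them among the longer genes. The longer intracellular carriers (9 of 34, 26.5%) and those with no single assigned location (8 of 29, 27.6%) lay above the longer Slc25 genes. Among the shorter genes they lay under Slc25, with 4 of 22 (18.2%) and 0 of 24. The interval for the longer Slc25 genes was 9.66 to 41.9%, so these orders are uncertain.

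**Figure D2:**
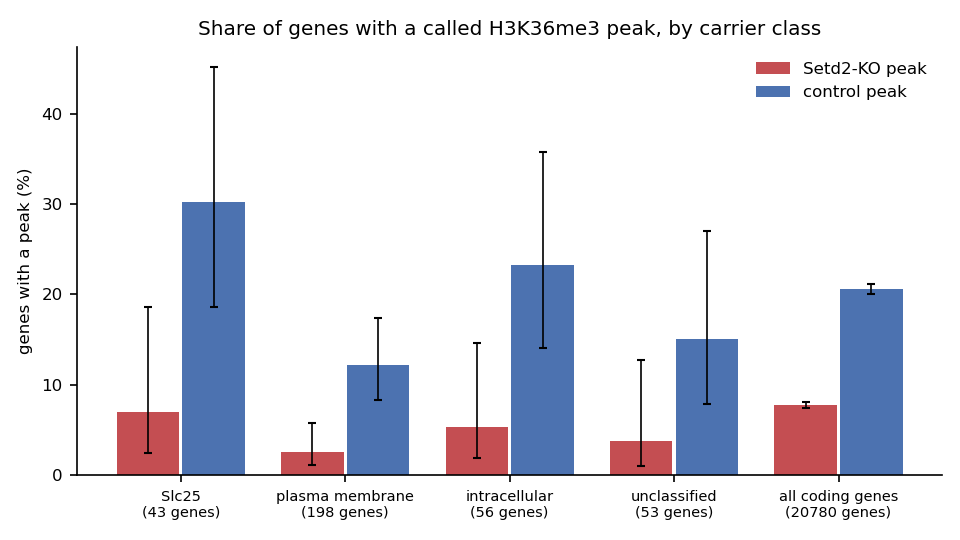
Percent of genes with a called peak (vertical axis) in each carrier class and over all coding genes on chromosomes 1 to 19, with Setd2-KO bars left of control bars and 95% Wilson intervals that cover counting error only. The control share was 30.2% for Slc25, 12.1% for plasma membrane carriers and 20.6% for all coding genes.

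Of the control-marked genes 3 of 13 Slc25 (23.1%, 8.18 to 50.3%) and 4 of 24 plasma membrane carriers (16.7%, 6.68 to 35.9%) also had a Setd2-KO peak. The intervals are wide and overlap, and a difference between the classes was not tested. Summed over the class, Slc25 held 1815 bp under Setd2-KO peaks and 13261 bp under control peaks (13.7%), and plasma membrane carriers 5531 bp and 30190 bp (18.3%). The control-marked Slc25 genes had a median of 858 bp under control peaks, covering 5.86% of the gene, and the control-marked plasma membrane carriers 540 bp, covering 2.47%.

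Among the Slc25 genes, those with a Setd2-KO peak were Slc25a3, Slc25a17 and Slc25a39. Slc25a3, the mitochondrial phosphate carrier, had 669 bp in 2 Setd2-KO peaks and 1414 bp in 2 control peaks, with highest fold enrichments over background of 3.72 in Setd2-KO PTECs and 3.98 in control PTECs. Slc25a17, which is located in peroxisomes and carries coenzyme A and related cofactors, had 597 bp in 1 Setd2-KO peak and 1330 bp in 3 control peaks. Its Setd2-KO peak in the last exon had a fold enrichment of 4.91, above the 4.49 of its strongest control peak, and it was the only member marked in both lists of which that was so. Slc25a39, needed for mitochondrial glutathione uptake, had a single peak in each list, of 549 bp in Setd2-KO PTECs against 971 bp in control PTECs, over its last exons. Its fold enrichment was 4.77 in Setd2-KO PTECs and 6.07 in control PTECs, the highest of any member in the control list.

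The other 10 Slc25 genes had control peaks only. Slc25a15, the ornithine carrier of the urea cycle, led them with 2022 bp in 4 peaks. Slc25a25, an ATP-Mg/phosphate carrier, had 1718 bp in 3 peaks, and Slc25a10, the dicarboxylate carrier, had 1664 bp in 2 peaks, which was 22.6% of its 7348 bp body. These 3 genes each had more control bases than Slc25a3, yet no Setd2-KO peak. Lower control values were found for Slc25a44, a branched-chain amino acid carrier (858 bp), Slc25a46, an outer membrane protein of mitochondrial dynamics (784 bp), Slc25a51, the NAD+ carrier (723 bp), and Slc25a45 (549 bp). Slc25a20, the carnitine-acylcarnitine carrier, had 367 bp. Slc25a2, another ornithine carrier, had 442 bp in 2 control peaks that also lay in 3 overlapping coding genes, so the peaks cannot be assigned to it.

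Carriers of the plasma membrane held the members with the longest coverage. Slc6a6, the taurine transporter, had 1214 bp in 2 Setd2-KO peaks and 8743 bp in 12 control peaks, which was 1.62% of its 75014 bp body in Setd2-KO PTECs and 11.7% in control PTECs. Its highest fold enrichment was 4.10 in Setd2-KO PTECs and 5.87 in control PTECs, and both Setd2-KO peaks overlapped the first control peaks of the gene while the 10 control peaks further on had none. Slc38a2, the SNAT2 transporter of small neutral amino acids, had 2441 bp in 4 Setd2-KO peaks and 4272 bp in 5 control peaks, which was 19.8% of its 12339 bp body in Setd2-KO PTECs and 34.6% in control PTECs. Its highest fold enrichment was 4.89 in Setd2-KO PTECs and 5.92 in control PTECs. All 4 Setd2-KO peaks of Slc38a2 overlapped a control peak, more than in any other member.

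Since Slc38a2 held the most Setd2-KO bases, the summits of its strongest Setd2-KO peak and of the control peak it overlaps are shown, again 5′ to 3′ on the strand of the gene (minus) from GRCm38.p6, here with coding bases in capitals. The Setd2-KO window was chr15:96691119-96691238 and the control window chr15:96691024-96691143.
Slc38a2, Setd2-KO summit: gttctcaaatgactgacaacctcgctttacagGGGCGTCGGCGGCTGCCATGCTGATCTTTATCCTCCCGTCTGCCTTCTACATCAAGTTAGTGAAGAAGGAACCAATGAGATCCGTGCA
Slc38a2, control summit: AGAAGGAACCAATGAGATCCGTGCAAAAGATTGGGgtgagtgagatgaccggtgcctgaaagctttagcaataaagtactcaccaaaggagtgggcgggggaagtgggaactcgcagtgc
The windows hold 88 coding bases in the Setd2-KO list and 35 in the control list, and none of their bases is masked as a repeat. The last coding bases of the Setd2-KO window recur at the start of the control window, and both peaks touched exons 14 and 15 of 16. The peaks had fold enrichments of 4.89 in Setd2-KO PTECs and 4.59 in control PTECs, with 41 and 36 fragments at the summit. At this site the fold enrichment was higher in Setd2-KO PTECs, while the strongest control peak of Slc38a2 lay further upstream over exons 8 to 12.

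Slc3a2, the heavy chain that carries light-chain amino acid exchangers to the membrane, had 926 bp in 2 Setd2-KO peaks and 899 bp in 2 control peaks, and was the only member marked in both lists with more Setd2-KO than control bases. Its highest fold enrichment was nevertheless 3.83 in Setd2-KO PTECs and 4.41 in control PTECs. Its light-chain partner Slc7a7 had no Setd2-KO peak and 518 bp of control peak. The pair that reclaims cystine and basic amino acids in the proximal tubule, Slc3a1 and Slc7a9, had no Setd2-KO peak and 310 bp and 382 bp of control peak.

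Slc23a2, a vitamin C transporter, had 416 bp in 1 Setd2-KO peak and 665 bp in 2 control peaks, but the nearest control peak lay 16835 bp from the Setd2-KO peak. Slc15a2, the kidney peptide transporter PEPT2, was the only carrier gene with a Setd2-KO peak (534 bp, fold enrichment 3.58) and no control peak. Its Setd2-KO peak touched exon 17 of 22, and the nearest control peak was 138547 bp away. A gene with no called peak can still carry the mark under the calling threshold.

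The plasma membrane carriers that led in control bases while lacking a Setd2-KO peak were Slc22a5, the OCTN2 carnitine transporter (2621 bp in 6 peaks), and Slc12a7, the potassium-chloride cotransporter KCC4 (2508 bp in 6 peaks). Slc5a12, a lactate transporter of the proximal tubule, had 1378 bp in 3 peaks. The other plasma membrane members reported here had between 290 and 839 bp of control peak, and none had a Setd2-KO peak. They transport phosphate (Slc20a1), bicarbonate (Slc4a2), bile acids (Slc10a1), organic anions (Slc22a6), choline (Slc44a1), zinc (Slc30a1), magnesium (Slc41a1), vitamins (Slc5a6), sugars or urate (Slc5a10, Slc2a9 and Slc2a1) and copper (Slc31a1). Slc22a14 had 485 bp, within the overlapping gene Xylb.

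Of the 13 intracellular carriers outside Slc25, Slc29a3, Slc30a5 and Slc35b4 had a Setd2-KO peak. Slc29a3, a nucleoside transporter of lysosomes, had 364 bp in 1 Setd2-KO peak and 2000 bp in 2 control peaks, with highest fold enrichments of 3.45 in Setd2-KO PTECs and 4.82 in control PTECs. Slc30a5, a zinc transporter of the secretory pathway, had 352 bp in 1 Setd2-KO peak and 1980 bp in 5 control peaks, and the Setd2-KO peak lay 454 bp from the nearest control peak without touching it. Slc35b4, a nucleotide sugar transporter, had 289 bp in Setd2-KO PTECs and 299 bp in control PTECs, the fewest Setd2-KO bases of the 13 members with a Setd2-KO peak. Its pair of peaks was weak in both lists, with fold enrichments of 3.26 in Setd2-KO PTECs and 3.37 in control PTECs. The other 10 had no Setd2-KO peak. Slc35a5, a Golgi member of the nucleotide sugar transporter family, had 1519 bp of control peak, Slc37a4, the glucose-6-phosphate transporter of the endoplasmic reticulum, 860 bp, and Slc30a7, Slc9a8, Slc35b2, Slc39a9, Slc17a5, Slc15a4, Slc39a13 and Slc35d1 between 290 and 686 bp.

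Of the 8 members with no single assigned location, Slc18b1 and Slc30a9 had a Setd2-KO peak. Slc18b1, a polyamine transporter, had 497 bp in 1 Setd2-KO peak and 1050 bp in 2 control peaks, of which 1 overlapped it. Slc30a9, a zinc transporter family member, had 322 bp in 1 Setd2-KO peak and 876 bp in 2 control peaks, the nearer of which lay 24650 bp from the Setd2-KO peak. Slc11a2, the iron transporter DMT1, had no Setd2-KO peak and 2389 bp in 4 control peaks, with a fold enrichment of up to 5.28. Slc8b1, the mitochondrial sodium-calcium exchanger, Slc35f5, Slc36a1, Slc10a7 and Slc31a2 had between 292 and 890 bp of control peak and no Setd2-KO peak. A further 3 members share the symbol pattern but are not carriers. Slc4a1ap had 1754 bp, and Slc9a3r1 and Slc9a3r2, the scaffold proteins NHERF1 and NHERF2, had 692 bp and 336 bp, all of it under control peaks.

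Across the 12 genes marked in both lists, 11 had fewer bases under Setd2-KO than control peaks, and 11 had a lower highest fold enrichment in Setd2-KO PTECs. Over all coding genes marked in both lists, 1353 of 1473 had fewer Setd2-KO bases and 1072 of 1473 had a lower highest fold enrichment. In 9 of the 12 genes a Setd2-KO peak overlapped a control peak, and in Slc23a2, Slc30a5 and Slc30a9 none did. Genes with more control bases more often had a Setd2-KO peak. Of those with at least 1000 bp under control peaks 7 of 17 had a Setd2-KO peak, 41.2% (21.6 to 64.0%), and of those under 1000 bp 5 of 44, 11.4% (4.95 to 24.0%). Over all coding genes the shares were 54.7% at 1000 bp or more and 16.7% under it.

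**Figure D3:**
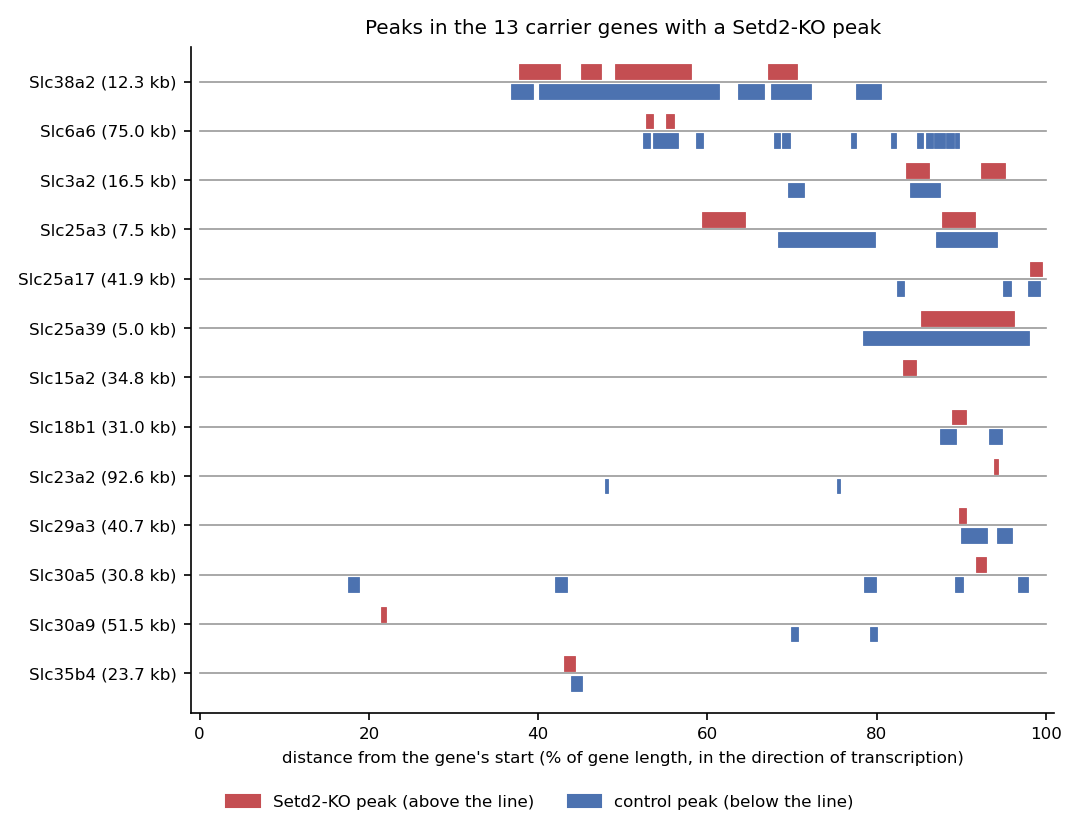
Positions of peaks along the 13 genes with a Setd2-KO peak, as percent of gene length from the start in the direction of transcription (horizontal axis), with Setd2-KO peaks above and control peaks below each gene line. Pairs overlap in 9 genes, in Slc23a2, Slc30a5 and Slc30a9 they do not, and Slc15a2 has no control peak.

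Peak position was not used to choose the genes, beyond lying in the body. Each gene body was divided into 5 equal parts from start to end. By the midpoint, 10 of 19 Setd2-KO peaks lay in the last part and 0 in the first, and 47 of 128 control peaks lay in the last part and 12 in the first. In percent, the last part held 52.6% (31.7 to 72.7%) of the Setd2-KO peaks and 36.7% (28.9 to 45.3%) of the control peaks. Over all coding genes it held 34.8% of Setd2-KO and 35.3% of control peaks. The first part held 9.38% (5.44 to 15.7%) of the members' control peaks, against 4.83% over all coding genes. The interval takes peaks as independent, but those 12 peaks include all 3 control peaks of Slc5a12. They also include the Slc22a14 peak that lies in Xylb. Of 24 Slc25 control peaks 0 lay in the first part, and of 59 control peaks in plasma membrane carriers 7 did. Slc22a5 had a control peak centred 978 bp from its start.

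**Figure D4:**
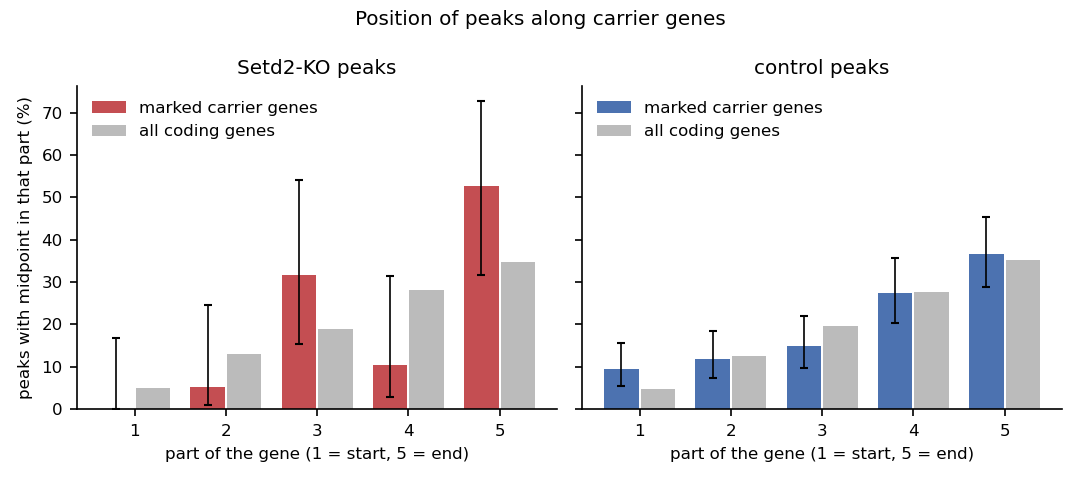
Percent of peaks whose midpoint lay in each of 5 equal parts of the gene body (vertical axis), from start to end (horizontal axis), for Setd2-KO peaks on the left and control peaks on the right, with coloured bars for the marked carrier genes (95% Wilson intervals) and grey bars for all coding genes. The last part held 10 of 19 Setd2-KO and 47 of 128 control peaks of the members.

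The midpoint lay in an intron for 11 of 19 Setd2-KO peaks and 87 of 129 control peaks, in a coding exon for 5 and 16, and in a 3′ UTR for 1 and 14. An exon of a non-coding transcript held the midpoint of 2 and 11, and 1 control peak was centred outside the gene body. The counts in this paragraph were not taken over all peaks or genes, so they cannot be read as particular to the members. Of the 14 control peaks in a 3′ UTR 7 belonged to intracellular carriers, of 23 control peaks of that class. An exon of the principal transcript was touched by 13 of 19 Setd2-KO peaks and 68 of 129 control peaks. The median GC content was 48.9% in Setd2-KO peaks and 49.0% in control peaks, against gene body medians of 44.8% and 46.7%. The GC content of the peaks exceeded that of the gene body in 7 of 13 Setd2-KO-marked and 45 of 61 control-marked members.

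Overlapping genes limit the assignment for some members. Of the control peaks in members 12 also lay in another coding gene, and of the Setd2-KO peaks none did. All control bases of Slc22a14, Slc25a2, Slc5a10, Slc39a13 and Slc31a1 were shared in this way, and Slc4a2 shared part of its bases with Fastk. At the edge of the rule, the members with the fewest bases were Slc31a1 and Slc35d1 with 290 bp each and Slc31a2 with 292 bp. The nearest carrier genes left outside were Slc46a3, whose body ended 594 bp from a control peak, Slc22a28 at 1079 bp and Slc16a3 at 1458 bp.

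By subfamily, 28 of 49 had a marked member and 10 had a member with a Setd2-KO peak. Over all carrier genes 62 of 354 were marked, and 21.2% of all coding genes had a peak in either list. At such shares a subfamily of few genes can lack a marked member without differing from the rest, and no subfamily was tested. Both genes of Slc3 and both of Slc31 were marked, as were 4 of 10 Slc30 zinc transporters and 13 of 43 Slc25 genes. In Slc22, the organic ion transporters of the proximal tubule, 3 of 25 genes were marked, in Slc35 5 of 26, in Slc7 2 of 15 and in Slc6 1 of 18. The marked Slc22 and Slc7 genes had control peaks only. The 21 subfamilies with no marked member held 77 genes, and 6 of them have at least 5 genes on these chromosomes. These were Slc16, the monocarboxylate transporters (13 genes), Slc26, anion exchangers (11), Slc1, glutamate and neutral amino acid transporters (7), Slc13, sulfate and citrate transporters (5), Slc24, calcium exchangers (5), and Slc27, fatty acid transporters (5, with Slc27a2 left out). The smaller ones were Slc14, Slc19, Slc28, Slc32, Slc33, Slc34, Slc40, Slc43, Slc45, Slc46, Slc47, Slc48, Slc50, Slc51 and Slc52, and Slc34 was counted without Slc34a1. Of the 4 genes left out by the rule 3 had a peak in either list. For Slc27 and Slc34 the lack of a marked member therefore holds only for the genes counted.

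**Figure D5:**
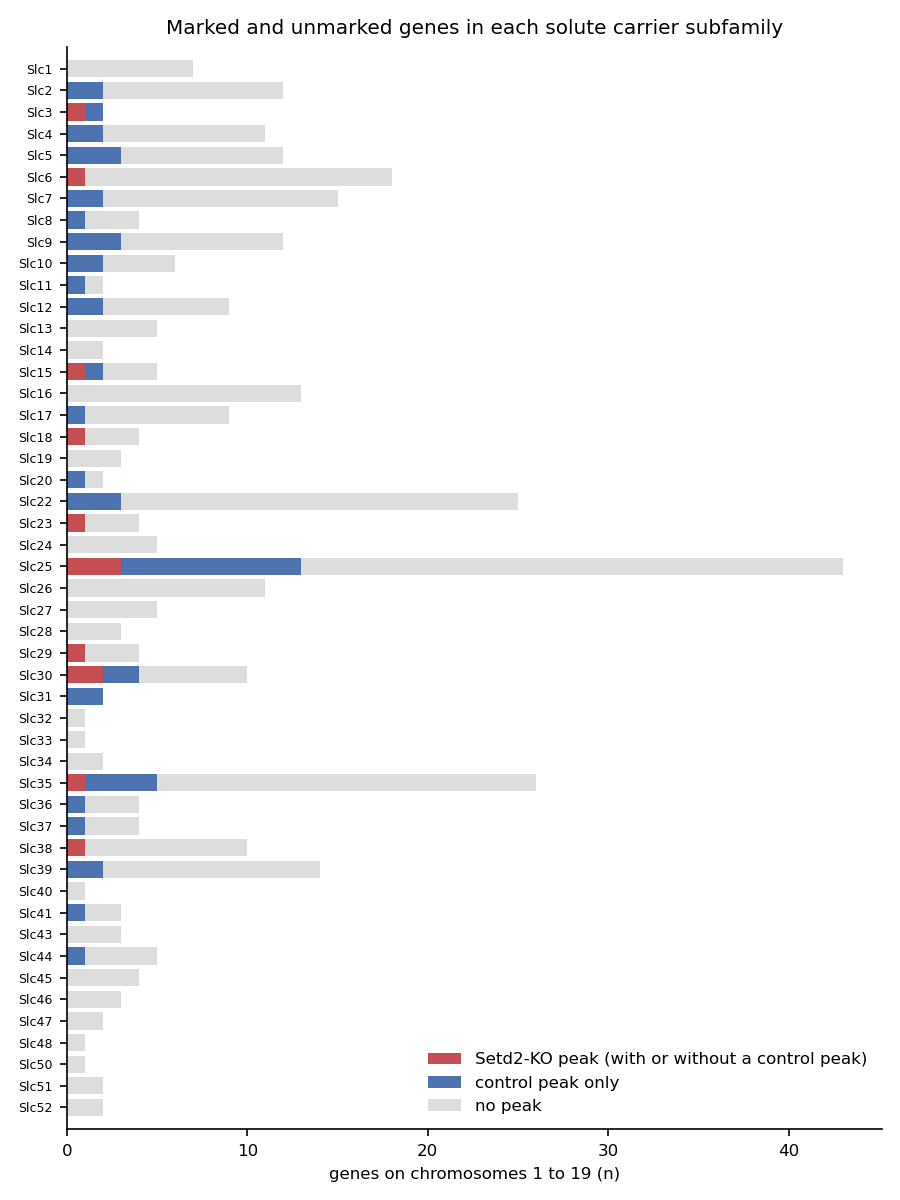
Number of genes on chromosomes 1 to 19 in each of 49 subfamilies (horizontal axis), split into genes with a Setd2-KO peak, genes with a control peak only and genes with no peak. Slc25 had the most marked genes (13 of 43), and 21 subfamilies had none among the genes counted, which do not include those left out by the rule.

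Of 48 proximal tubule carriers 2 had a Setd2-KO peak (Slc3a2 and Slc15a2), 4.17% against 7.76% of all coding genes, with 1460 bp under peaks. A control peak lay in 11 of them, 22.9% against 20.6% of all coding genes, with 9628 bp under peaks. For the 48 genes listed the control share was thus near that of all coding genes. The list does not hold the 4 genes left out by the rule, of which 3 had a peak in either list. The shares of all coding genes include those 4 genes. None of 12 carriers of the distal tubule and collecting duct and none of 25 neuronal or vesicular carriers had a peak in either list, and no difference between these lists was tested. Among carriers that do not bear the Slc symbol, 2 of 26 had a Setd2-KO peak (7.69%, against 7.76% of all coding genes) and 8 a control peak (30.8%, against 20.6%). Letm1, an ion exchanger of the mitochondrial inner membrane, had 430 bp under Setd2-KO peaks and 2577 bp under control peaks, and Mtch2, an outer membrane protein of the Slc25 fold, had 300 bp and 322 bp. Sfxn1, a mitochondrial serine transporter, had no Setd2-KO peak and 1735 bp under control peaks.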

How the data were processed

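H3K36me3 ChIP-seq libraries of Setd2-KO and control PTECs, with 1 ChIP and 1 input library each (4 libraries), were compared through their peak lists, with groups from the labels. The material is described in the labels as primary tubular cells and once in the methods as tissue of MYC-overexpressing mice; the labels were followed. The submitters' processing notes name cutadapt 1.9.1 and Trimmomatic 0.35 (trimming), Bowtie2 2.2.6 (mapping to mm10, GRCm38) and MACS2 2.1.1 (peak calling, against the input of the same genotype). The deposited pileup signal counts extended fragments at the summit. The deposited fold enrichment is the ratio of that pileup to the local background. The −log10 p and −log10 q values were also deposited by the authors and used only as filters. The lowest −log10 q was 3.08 in the Setd2-KO list and 3.09 in the control list. A fold-enrichment filter is also named in the authors' reporting summary. It lies above the median deposited fold enrichment of peaks on chromosomes 1 to 19, 3.85 in the Setd2-KO list and 3.83 in the control list. That filter on the deposited values thus did not give these lists, and which of the other named filters did is unclear. The authors' reporting summary lists total and uniquely mapped reads for each library. These read totals were not used here, so depth was seen only through the background pileup.

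Peaks were joined to GENCODE M21 genes (Python 3.11.15, pandas 2.3.3) at a minimum overlap of 1 bp. Carrier class was assigned by hand. The join was tested on simulated data. Shares carry 95% Wilson intervals, and no test was run with 1 library per genotype. The members, lists and classes were chosen with earlier results of these data known. Named genes were all marked Slc25 genes, the 10 other members with the most control bases, all members with a Setd2-KO peak, the members at the edge of the rule and those with the highest fold enrichment; the other members were named by class. Not every member is reported here by name. Of 27 listed carriers with other names 26 matched the annotation, as did 12 of 13 markers of the later tubule segments. The Slc38a2 windows, Letm1, Mtch2, Sfxn1 and the light-chain pairs were chosen after their values were seen. Alternatives were stricter fold enrichment, stricter q, minimum coverage or peak number, removal of shared peaks, other gene sets and other overlap definitions.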

Additional observations from a re-analysis of the deposited data

How the results depend on the processing

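No paired analysis was possible because each genotype had 1 ChIP library, and no replicate could be left out. Of 61 alternative values 45 stayed within 1.5 times the count or within the 95% interval of the value reported. That tally includes values fixed in advance. The minimum of 100 bp could change nothing, since the lowest coverage of a marked gene was 289 bp in the Setd2-KO list and 290 bp in the control list. Restoring the left-out genes could not move the Slc25 shares, since none of them is an Slc25 gene. It did raise the Setd2-KO bases to 18.2% of the control bases. The share of control-marked carrier genes with a Setd2-KO peak rose to 21.9%, and to 19.2% for plasma membrane carriers. The intervals of the shares with a Setd2-KO peak were also wide. The number of marked carrier genes was 30 at a fold enrichment of at least 4, 13 at a −log10 q of at least 10 and 30 with at least 2 peaks required. Under the same 3 settings 5, 3 and 4 genes had a Setd2-KO peak, and 30, 12 and 30 a control peak. The control share of Slc25 was 9.30% at the stricter q. The control share of plasma membrane carriers was 5.05% at the stricter fold enrichment, 2.02% at the stricter q, 5.05% with at least 2 peaks, and 18% among genes under 20 kb, a limit chosen after seeing the data. The Setd2-KO bases came to 8.73% of the control bases at the stricter fold enrichment. In a separate setting only the control peaks were held to a fold enrichment of at least 4. Of the members' 47 control peaks that met it, 8 (17%) overlapped a Setd2-KO peak. The control share of Slc25 was above that of plasma membrane carriers in all 9 settings run. These settings count the main one and the 100 bp minimum, which gave the same values. All of them reuse the same peak lists, so they are not independent checks. The share of control-marked genes that also had a Setd2-KO peak was higher for Slc25 in 7 of the 9 settings. It was equal at 25% with the stricter q, and lower with at least 2 peaks, at 12.5% for Slc25 and 30.0% for plasma membrane carriers. The cause was not tested. Of the 61 control-marked members 27 had 1 peak of under 600 bp.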
